A study of Mus musculus with 4 samples.

Results

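The genes described here make sterols and fatty acids: 30 genes, listed by name, all of them found as 1 row in both deposited tables, among 23284 genes in all. They form a sterol arm of 19 genes (16 enzymes from acetyl-CoA to cholesterol, the regulators Srebf2 and Insig1, and the sterol carrier gene Stard4) and a fatty acid arm of 11 genes (the regulator Srebf1 and 10 enzymes). The list goes by gene name and uses no measured value, but it was chosen with earlier results of these data known. The 4 libraries hold RNA of whole lungs from C57BL/6 mice, and each of the 4 groups has 1 library. After sensitization and challenge with the allergen house dust mite (HDM), lungs of a wild-type group and of an IL22-/- group, without the cytokine interleukin-22 (IL-22), were collected 48 h past the final dose. In the other pair, wild-type mice without HDM in their labels had received recombinant IL-22, or phosphate-buffered saline (PBS) as control, into the trachea 24 h before collection. No label gives the animals' age, or says whether a library is 1 lung or a pool.

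Cells make cholesterol from acetyl-CoA through mevalonate, squalene and lanosterol, and make fatty acids from acetyl-CoA through malonyl-CoA. The transcription factors SREBP-2 (gene Srebf2) and SREBP-1 (gene Srebf1) switch on the sterol and the fatty acid genes when membrane sterol runs low. Proliferating cells need both kinds of lipid for new membrane, and alveolar type II cells need fatty acids for the phospholipids of surfactant.

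SREBPs bind beside the factor NF-Y, whose site is the sequence CCAAT. The RefSeq promoters (300 bases, 250 before to 50 after the annotated start, GRCm38.p6) held entries for 23 of the 30 genes; Fdps, Fdft1, Sqle, Stard4, Scd1, Scd2 and Fads1 had none. Both strands were searched for CCAAT and for a sterol regulatory element spelled TCACNCCAC, where N is any base; in Hmgcs1, the one member with both, the matches do not overlap. All 15 sterol arm genes with an entry held CCAAT in at least 1 of their promoters, and 5 of 8 fatty acid genes did, against 41.1% of all 27025 genes with an entry and 42.4% of the 10719 of them measured in these lungs. Some genes have several annotated starts; counted by promoter, 15 of 18 sterol arm promoters held it, against 37.4% of all 32851. TCACNCCAC was found in 1 member, Hmgcs1, and in 1.44% of all genes. Sterol regulatory elements spelled otherwise were not searched for, so a promoter without this match may still hold one. All these counts are of matches of letters, and nothing about binding was measured.

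**Figure D1:**
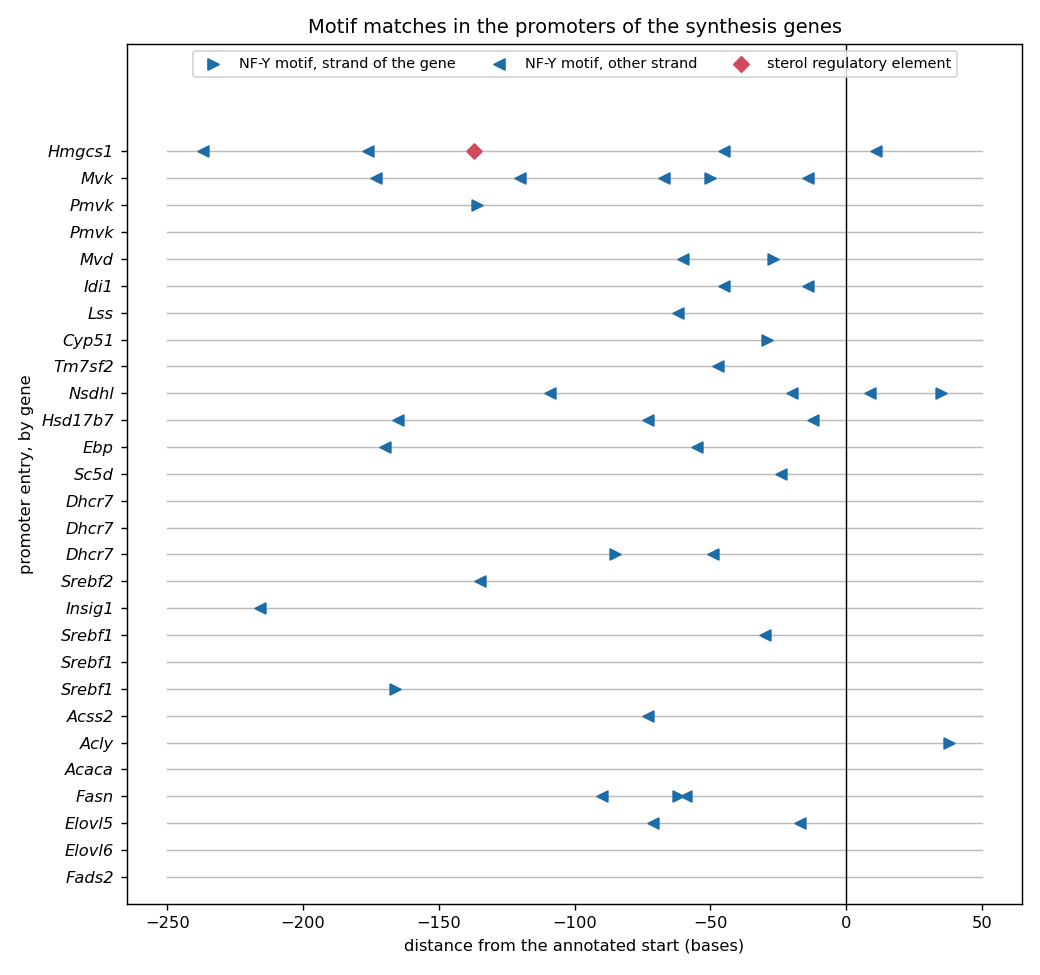
Motif matches in 28 promoter entries of 23 synthesis genes, by distance in bases from the annotated start (black line). Triangles are the NF-Y motif CCAAT and point along the gene on its own strand and backwards on the other. The diamond is a match to the sterol regulatory element as spelled TCACNCCAC. Most triangles of the sterol arm, from Hmgcs1 to Insig1, lie within 100 bases before the start, and the diamond is in Hmgcs1 alone.

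The promoters of Hmgcs1, Idi1, Cyp51 and Hsd17b7 are shown as examples of sterol enzymes at -0.52 or lower in the knockout comparison on the log2 scale, and that of Fasn as a fatty acid enzyme with little difference. Each reads 5′ to 3′ on the gene's strand of GRCm38.p6, with CCAAT (or ATTGG, the same site on the other strand) and TCACNCCAC in capitals. They lie at chr13:119690101-119690400 (plus strand, Hmgcs1), chr13:8885356-8885655 (plus, Idi1), chr5:4104648-4104947 (minus, Cyp51), chr1:169969156-169969455 (minus, Hsd17b7) and chr11:120824498-120824797 (minus, Fasn).
Hmgcs1: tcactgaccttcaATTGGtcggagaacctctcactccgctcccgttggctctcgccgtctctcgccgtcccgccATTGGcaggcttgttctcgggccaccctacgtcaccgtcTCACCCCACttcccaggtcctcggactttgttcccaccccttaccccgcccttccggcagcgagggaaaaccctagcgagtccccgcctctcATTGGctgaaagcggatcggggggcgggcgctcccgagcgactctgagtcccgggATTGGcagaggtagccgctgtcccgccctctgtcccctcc
Idi1: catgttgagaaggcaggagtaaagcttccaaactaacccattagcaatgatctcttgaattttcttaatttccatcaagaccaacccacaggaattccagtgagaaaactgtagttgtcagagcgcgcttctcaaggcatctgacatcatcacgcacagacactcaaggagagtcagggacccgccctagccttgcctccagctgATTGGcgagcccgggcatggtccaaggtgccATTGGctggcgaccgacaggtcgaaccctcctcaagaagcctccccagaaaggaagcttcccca
Cyp51: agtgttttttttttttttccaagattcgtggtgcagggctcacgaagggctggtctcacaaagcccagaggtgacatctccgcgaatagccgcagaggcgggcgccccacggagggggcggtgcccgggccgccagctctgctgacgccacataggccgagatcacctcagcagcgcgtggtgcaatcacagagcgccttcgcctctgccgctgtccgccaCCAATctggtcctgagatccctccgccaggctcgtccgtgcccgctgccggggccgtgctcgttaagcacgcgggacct
Hsd17b7: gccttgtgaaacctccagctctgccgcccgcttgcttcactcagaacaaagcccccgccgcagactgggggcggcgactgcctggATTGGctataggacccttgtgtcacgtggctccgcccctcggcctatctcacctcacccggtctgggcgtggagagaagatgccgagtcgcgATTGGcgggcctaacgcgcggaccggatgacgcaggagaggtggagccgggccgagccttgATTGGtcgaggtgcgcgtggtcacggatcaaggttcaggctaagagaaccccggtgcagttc
Fasn: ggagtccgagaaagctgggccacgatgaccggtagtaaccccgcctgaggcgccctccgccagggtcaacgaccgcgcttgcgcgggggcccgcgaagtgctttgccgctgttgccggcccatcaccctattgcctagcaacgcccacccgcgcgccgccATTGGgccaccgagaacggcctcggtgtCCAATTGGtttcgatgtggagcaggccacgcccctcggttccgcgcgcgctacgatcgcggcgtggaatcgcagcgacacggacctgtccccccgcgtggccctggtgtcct
In Hmgcs1 the sterol regulatory element begins at -137 from the start, and CCAAT lies on the other strand at -237, -176, -45 and 11. Cyp51 holds a single CCAAT, at -29 on its own strand. Idi1 holds it on the other strand at -45 and -14, and Hsd17b7 at -165, -73 and -12. Fasn holds it at -90, -62 and -59, and the last 2 of these overlap on opposite strands.

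Values are FPKM, fragments scaled by transcript length and library depth, so levels can be compared between genes. The steps of the low values put the depth at an estimated 24.97 M (mega) fragments for the wild-type HDM library, 27.3 for the knockout HDM library, 19.99 for PBS and 28.9 for IL-22. Every difference below is on the log2(FPKM + 1) scale, within 1 table, and understates that of low genes. The size rule calls a gene only if the difference reaches 1 in either direction and the pair's mean FPKM reaches 1. With 1 library per group there is no replicate spread and no test between groups, and no difference below has a replicate check. Intervals given with ratios are exact binomial 95% intervals of the estimated reads, and cover counting error between 2 libraries only. Il22 was estimated at 8 reads in the wild-type HDM library and listed at 0 in the other 3; its paralog Iltifb, with which reads can be split, had 5 and 0 in the same libraries. The 0 of the knockout goes with its label, but both wild-type libraries without HDM share it. Sftpc, the surfactant gene of alveolar type II cells, stood at 30749 to 37820 FPKM in the 4 libraries.

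All 30 genes had a mean FPKM above the filter in both pairs. Scd1, the stearoyl-CoA desaturase that makes monounsaturated fatty acids, had the highest level of the 30 in every library, with 533 FPKM after HDM in wild type, 594 after HDM in the knockout, 297 with PBS and 512 with IL-22. It alone made up 59.9%, 60.3%, 40.5% and 53.9% of the summed FPKM of the fatty acid arm in the same order. Scd2, a second desaturase (90.3, 114, 141 and 120 FPKM), and Elovl5, which lengthens polyunsaturated fatty acids (97.2, 118, 95.3 and 90.7), came next. Scd1 and Scd2 are close paralogs between which reads can be split. The lowest level in each library was that of Elovl6, the elongase of saturated chains (1.73, 1.33, 1.03 and 2.04 FPKM). Other low genes were the sterol reductase genes Hsd17b7 (3.47, 2.06, 2.30 and 3.02) and Tm7sf2 (3.91, 4.24, 2.74 and 2.87). Of the sterol enzymes, Fdps, Pmvk, Hmgcs1 and Idi1, all of the mevalonate steps, stood highest, between 27.9 and 74.7 FPKM.

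**Figure D2:**
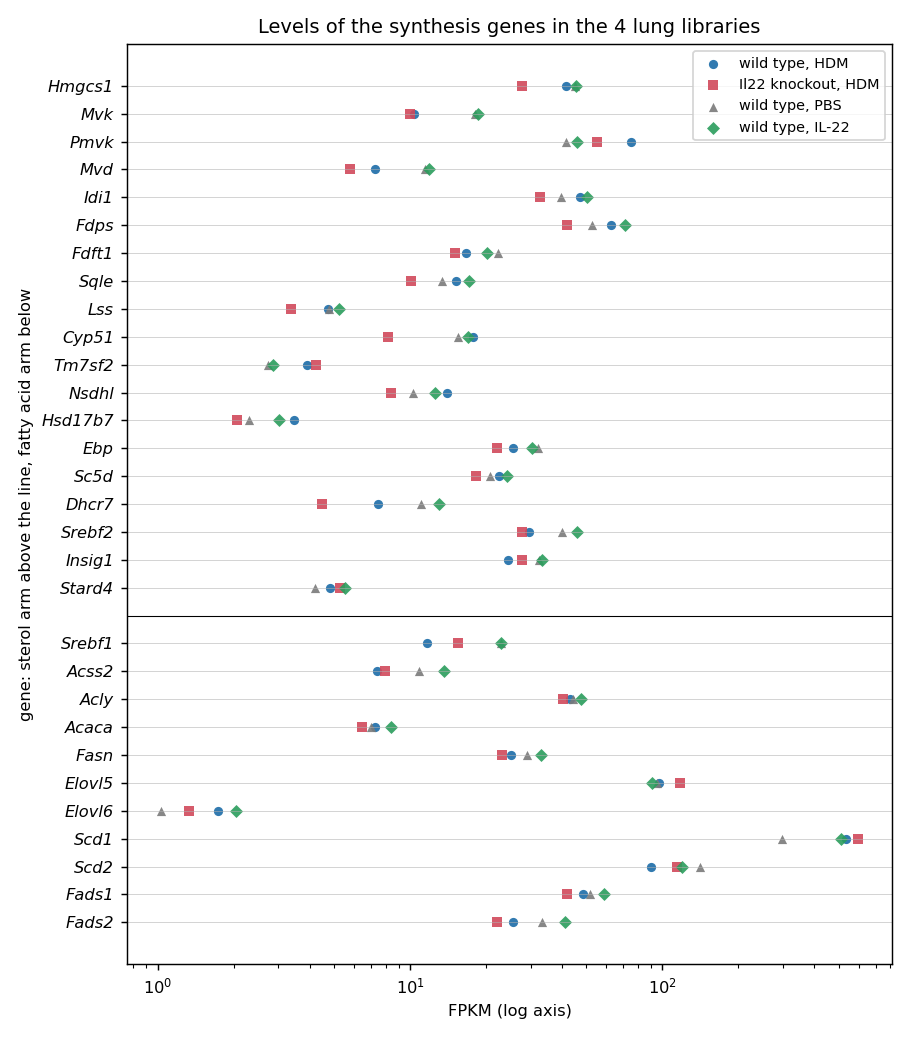
FPKM on a log axis of the 19 sterol arm genes (above the line) and the 11 fatty acid arm genes (below it) in each of the 4 libraries, 1 point per library. Red squares, the knockout HDM library, lie left of blue circles, the wild-type HDM library, for 16 of 19 sterol arm genes, and Scd1 is the highest gene in each library.

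The HDM pair sets lungs without IL-22 against wild-type lungs, both with allergen. Sterol synthesis genes lay lower as a group in the knockout HDM library, by amounts mostly short of the size rule, while the fatty acid genes went both ways. Of 19 sterol arm genes 16 lay below 0, against 46.1% of the 13285 measured genes, and their median difference was -0.39, against 0.03 over all measured genes. By the size rule 1 sterol arm gene, Cyp51, was called lower and none higher, where 2.42% of measured genes were called lower and 0.549% higher. By a smaller rule of 1.5-fold on the same scale 3 of 19 were lower and none higher, where 6.41% of measured genes were lower and 3.23% higher. The summed FPKM of the arm was 433 in wild type and 330 in the knockout. In whole lung, fewer cells of a type and less RNA per cell cannot be told apart.

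The 6 genes of the mevalonate steps all lay below 0, with a median of -0.47. Hmgcs1, the HMG-CoA synthase at the head of the pathway (chromosome 13, 119690351 to 119708260), had 41.4 FPKM in wild type against 27.9 in the knockout, a ratio of 0.672 (0.638 to 0.708) and a difference of -0.56. Idi1, which isomerizes isopentenyl diphosphate, was at 47.2 against 32.6 FPKM, a ratio of 0.691 (0.656 to 0.728). Fdps, the farnesyl diphosphate synthase, was at 62.5 against 42.0, a ratio of 0.671 (0.625 to 0.720). These 3 had nearly the same ratio, and none of their counting intervals came near 1. Pmvk, phosphomevalonate kinase, was at 74.7 against 55.2 FPKM (difference -0.43), and Mvd, which decarboxylates mevalonate diphosphate, at 7.27 against 5.78 (-0.29). Mvk, mevalonate kinase, had almost the same level in both, 10.3 and 9.99 FPKM, and its interval of 0.836 to 1.11 held 1.

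The 3 genes from squalene to lanosterol lay at -0.56, -0.39 and -0.13. Sqle, squalene epoxidase, a rate-limiting step, had 15.3 FPKM in wild type against 10.05 in the knockout, a ratio of 0.659 (0.596 to 0.726). Lss, which closes the ring to lanosterol, was at 4.72 against 3.36. Fdft1, squalene synthase, was at 16.6 against 15.1, a ratio of 0.907 (0.843 to 0.976).

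The steps from lanosterol to cholesterol held the largest differences, with 6 of 7 genes below 0 and a median of -0.55. Cyp51, the lanosterol demethylase (chromosome 5, 4080674 to 4104697, minus strand), had 17.8 FPKM in wild type against 8.18 in the knockout, a difference of -1.03 and a ratio of 0.460 (0.423 to 0.49996). From its level and transcript length it had an estimated 1657 and 833 reads. Nsdhl, a dehydrogenase that takes part in removing further methyl groups from the sterol (chromosome X, 72918521 to 72958528), was at 13.9 against 8.43 FPKM, a ratio of 0.605 (0.536 to 0.682). Dhcr7, a reductase of the last steps to cholesterol, was at 7.43 against 4.47, a ratio of 0.602 (0.521 to 0.694). Hsd17b7, a sterol ketone reductase, was at 3.47 against 2.06, a ratio of 0.592 (0.504 to 0.698). These 4 enzymes had the lowest ratios of all 30 genes. Sc5d, a sterol desaturase, was at 22.5 against 18.3 FPKM (-0.29), and Ebp, a sterol isomerase, at 25.5 against 22.0 (-0.20). Tm7sf2, a sterol reductase, was the only enzyme of the arm above 0, at 3.91 against 4.24 FPKM, and its interval of 0.848 to 1.39 held 1.

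Of the other 3 genes of the arm, the regulator Srebf2 lay below 0 and Insig1 and the carrier Stard4 above. Srebf2 had 29.5 FPKM in wild type against 27.9 in the knockout, a difference of -0.08 and a ratio of 0.943 (0.9002 to 0.987). Insig1, which holds SREBP in the endoplasmic reticulum and is itself an SREBP target, was at 24.4 against 27.7 (0.17), and Stard4 at 4.81 against 5.29 (0.11). By counting error alone, the intervals of 15 of the 19 sterol arm genes lay below 1 and that of Insig1 above it. At these read numbers small differences also exclude 1, as for Srebf2. No such count was made over all measured genes, so this one does not set the arm apart.

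In the fatty acid arm no gene was called and none passed the 1.5-fold rule. Of all measured genes 2.42% were called lower and 0.549% higher, and by the 1.5-fold rule 6.41% and 3.23%. Of the 11 genes 6 lay below 0 and 5 above, where 46.1% of measured genes lay below 0. The median of the arm was -0.09, against 0.03 over all measured genes. The regulator Srebf1 had the largest positive difference of all 30 genes, with 11.7 FPKM in wild type against 15.5 in the knockout, a difference of 0.37 and a ratio of 1.32 (1.23 to 1.42). Of the genes of acetyl-CoA supply and chain synthesis, Acly, which splits citrate to acetyl-CoA, was at 42.8 against 40.3, Acaca, acetyl-CoA carboxylase, at 7.27 against 6.42 and Fasn, fatty acid synthase, at 25.1 against 23.0. Acss2, which makes acetyl-CoA from acetate, was at 7.38 against 7.93. The values of these 4 lay within 0.16 of 0. Among desaturases and elongases, Scd2 (0.33), Elovl5 (0.28) and Scd1 (0.15) lay above 0, while Elovl6 lay at -0.23. Fads1 and Fads2, the desaturases of polyunsaturated fatty acids, were at 48.5 against 41.9 FPKM (-0.20) and 25.6 against 22.0 (-0.21). By counting error alone, 6 intervals of this arm lay below 1 and 4 above, again with no share over all measured genes. The sterol enzymes with differences near -0.6 thus stood outside the range of the fatty acid arm, which ran from -0.23 to 0.37.

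**Figure D3:**
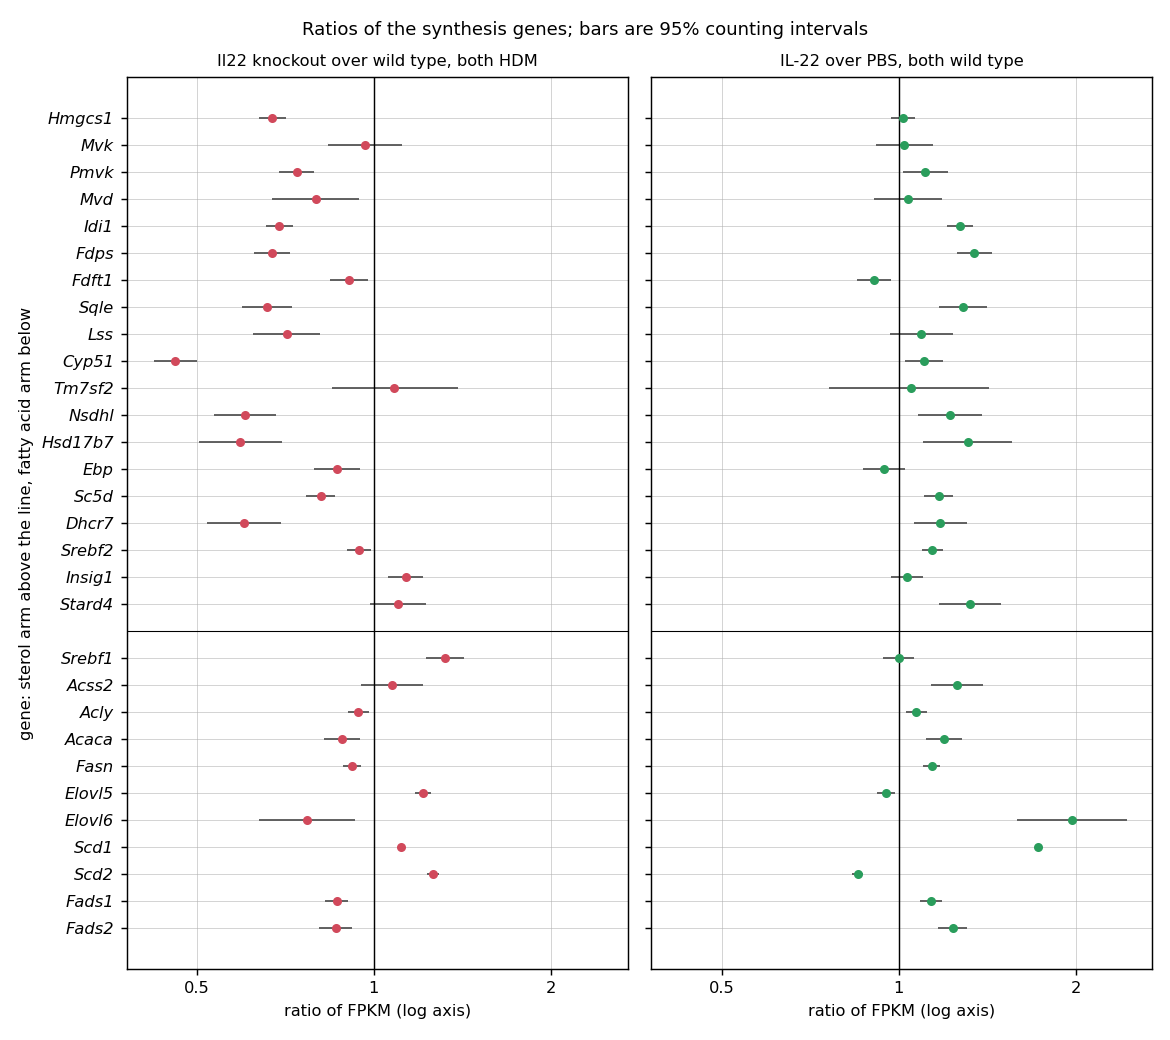
Ratio of FPKM for each gene, knockout over wild type after HDM (left) and IL-22 over PBS (right), on a log axis; bars are exact 95% counting intervals of estimated reads and hold no spread between animals. On the left most sterol arm genes lie below 1, down to 0.460 for Cyp51, and on the right Scd1 and Elovl6 are farthest above 1.

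Other cell and state markers differed in the same pair of libraries. Of 10 genes of dividing cells 9 were called lower in the knockout and their summed level was 81.4 FPKM in wild type against 24.3 in the knockout. Of 13 markers of interstitial macrophages 8 were called lower, with sums of 470 and 167 FPKM, and none was at 0 in both. Of 12 alveolar macrophage markers 2 were called lower and 1 higher (520 and 384 FPKM). Of 10 fat cell markers 5 were measured and 2 of these, Cfd and Adipoq, were called lower (87.1 and 49.3 FPKM), with Lep listed at 0 in both. The 10 alveolar type II markers had no called member and a median of 0.08 (38160 and 44810 FPKM). Of 8 smooth muscle markers 1 was called lower (median -0.44) and of 6 measured T cell markers none (median -0.63), while 4 of 5 measured erythroid genes were called higher (median 1.17). The lung fibroblast genes Inmt and Tcf21 were called higher among 9 markers, of which 5 lay above 0 and 4 below (median 0.07). The sums of this list were 1639 and 3142 FPKM, of which Inmt alone held 1031 and 2511. Of 6 measured neutrophil markers S100a8 and S100a9 were called higher and Retnlg lower (169 and 217 FPKM), and of 6 B cell markers Fcer2a was called lower (54.7 and 46.6 FPKM). Club, ciliated and endothelial cell markers had no called member (medians 0.18, -0.24 and 0.34). Of 13 measured circadian clock genes 1 was called higher and 1 lower (median 0.47). The part of these in the sterol gene values was not tested.

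Other genes of the pathways were taken from lists fixed by name. Of 17 measured further genes of sterol synthesis, control and transport none was called, and the median was -0.06. The 3 with the largest differences were Msmo1 (listed as Sc4mol), Acat2 and Mbtps1. Msmo1, the methyl oxidase that works beside Nsdhl, had 33.4 FPKM in wild type against 21.5 in the knockout (-0.62). Acat2, which joins acetyl-CoA units at the pathway's entry, was at 18.1 against 13.2 (-0.43). Mbtps1, a protease that takes part in releasing SREBPs from their membrane, was at 26.8 against 34.7 (0.36). Of genes of sterol efflux and of the oxysterol receptor LXR, 6 of 8 measured lay above 0 (median 0.24) and 1 was called lower. Over all genes, 7154 of 13285 measured lay above 0 in this pair. Mylip, a ubiquitin ligase for lipoprotein receptors, had 7.83 FPKM in wild type against 16.6 in the knockout (0.99), and Abca1, the cholesterol exporter, was at 3.31 against 6.44 (0.79). Ch25h, which makes 25-hydroxycholesterol and is also an interferon-induced gene, was the called member, at 11.1 against 3.69 (-1.36). Of 26 measured further genes of fatty acid and glycerolipid synthesis none was called, and the median was 0.06. The largest differences were those of Me1, the malic enzyme that supplies NADPH for lipid synthesis (66.5 against 35.5 FPKM, -0.89), Acsl4, an acyl-CoA synthetase for arachidonic acid (76.5 against 44.3, -0.78), and Lpin1, a phosphatidate phosphatase (4.96 against 8.16, 0.62). The 14 measured genes of fatty acid oxidation had no called member and a median of 0.07.

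The other pair sets lungs given IL-22 against lungs given PBS. None of the 30 genes was called in this pair, where 0.597% of 13233 measured genes were called higher with IL-22 and 0.189% lower. The fatty acid gene Scd1 had the largest difference, 0.79. In the sterol arm 17 of 19 genes lay above 0 (15 with the libraries scaled by the median ratio, which put Hmgcs1 and Mvk below 0), against 58.6% of measured genes as deposited, and the median was 0.15, against 0.04 over all measured genes. No sterol arm gene passed the 1.5-fold rule in either direction, where 1.96% of measured genes were higher and 0.461% lower.

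Fdps had the largest difference of the sterol arm, at 52.8 FPKM with PBS and 70.9 with IL-22, a ratio of 1.34 (1.25 to 1.44) and a difference of 0.42. Sqle was at 13.3 against 17.2 FPKM (0.34), Idi1 at 39.7 against 50.4 (0.34) and Stard4 at 4.18 against 5.52 (0.33). Hsd17b7 (2.30 against 3.02 FPKM) and Nsdhl (10.2 against 12.5) lay at 0.28 and 0.27, and Dhcr7 (11.1 against 13.0) and Sc5d (20.6 against 24.1) both at 0.22. Srebf2 was at 40.1 against 45.8 (0.19), Pmvk at 41.4 against 46.0 (0.15) and Lss at 4.78 against 5.23 (0.11). Hmgcs1 was at 44.9 and 45.6 FPKM, Mvk at 18.1 and 18.5 and Insig1 at 32.4 and 33.4, with Mvd (11.5 and 11.9) and Tm7sf2 (2.74 and 2.87) as close, so the head of the pathway and the feedback gene stood nearly level. Cyp51, which had the largest difference of the knockout pair, was at 15.4 against 17.0 (0.13). Fdft1 (22.2 against 20.2) and Ebp (32.1 against 30.3) lay below 0, at -0.13 and -0.08. By counting error alone, 11 intervals of the arm lay above 1 and that of Fdft1 below it, without a share over all measured genes.

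In the fatty acid arm 8 of 11 genes lay above 0, against 58.6% of measured genes, with a median of 0.18. Scd1 (chromosome 19, 44394450 to 44407709) was at 297 FPKM with PBS and 512 with IL-22, a ratio of 1.73 (1.70 to 1.75), and passed the 1.5-fold rule, the only gene of the 30 to do so in this pair. Elovl6 was at 1.03 against 2.04 FPKM, a ratio of 1.97 (1.59 to 2.44), from an estimated 119 and 338 reads; at this low level its difference was 0.58. The 4 genes of acetyl-CoA supply and chain synthesis all lay above 0: Acss2 (10.9 against 13.6 FPKM, 0.30), Acaca (7.003 against 8.36, 0.23), Fasn (29.1 against 33.2, 0.18) and Acly (44.3 against 47.5, 0.10). Fads2 was at 33.3 against 41.2 (0.30) and Fads1 at 51.5 against 58.4 (0.18). By counting error alone, 8 intervals of this arm lay above 1 and 2, those of Scd2 and Elovl5, below. Here too no share over all measured genes was computed. Scd2 went the other way from Scd1, at 141 against 120 FPKM (-0.23), and Elovl5 lay at -0.07. Srebf1 was level, at 22.95 and 22.94 FPKM, on the other side of 0 with the libraries scaled to a common total without Scgb1a1.

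Markers of several cell types also differed in this pair, among them those of fat cells, which express Scd1. Of 10 fat cell markers 8 were measured, all above 0, and 4 were called higher with IL-22; their summed level was 166 FPKM with PBS and 331 with IL-22, with Ucp1 listed at 0 in both. Adipoq, the adipokine adiponectin, was at 6.65 against 20.01 FPKM. Thrsp, a regulator of fatty acid synthesis abundant in fat, was at 10.2 against 17.8 (0.74), the largest difference among 26 measured further genes of lipid synthesis, none of which was called (median 0.08). Interstitial macrophage markers were called higher in 6 of 13 (244 and 518 FPKM) and smooth muscle markers in 3 of 8 (534 and 1054 FPKM). Alveolar macrophage markers had no called member (394 and 342 FPKM), and alveolar type II markers none (42383 and 38122 FPKM, median -0.10). The lists of club, ciliated, endothelial, fibroblast, T, B and neutrophil markers, and of erythroid, dividing cell and clock genes, had no called member in this pair, with medians from -0.19 to 0.25. The part of these in the values of Scd1 and the other genes was not tested. Of the sterol efflux and LXR genes 6 of 8 measured lay below 0 here (median -0.19), where 5478 of 13233 measured genes did. Abca1 was at 5.86 against 3.55 FPKM (-0.59), Abcg1, another sterol exporter, at 17.3 against 11.5 (-0.55), and none of the 8 was called. The 17 further sterol pathway genes had a median of 0.05 and the 14 of fatty acid oxidation -0.05, with none called.

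**Figure D4:**
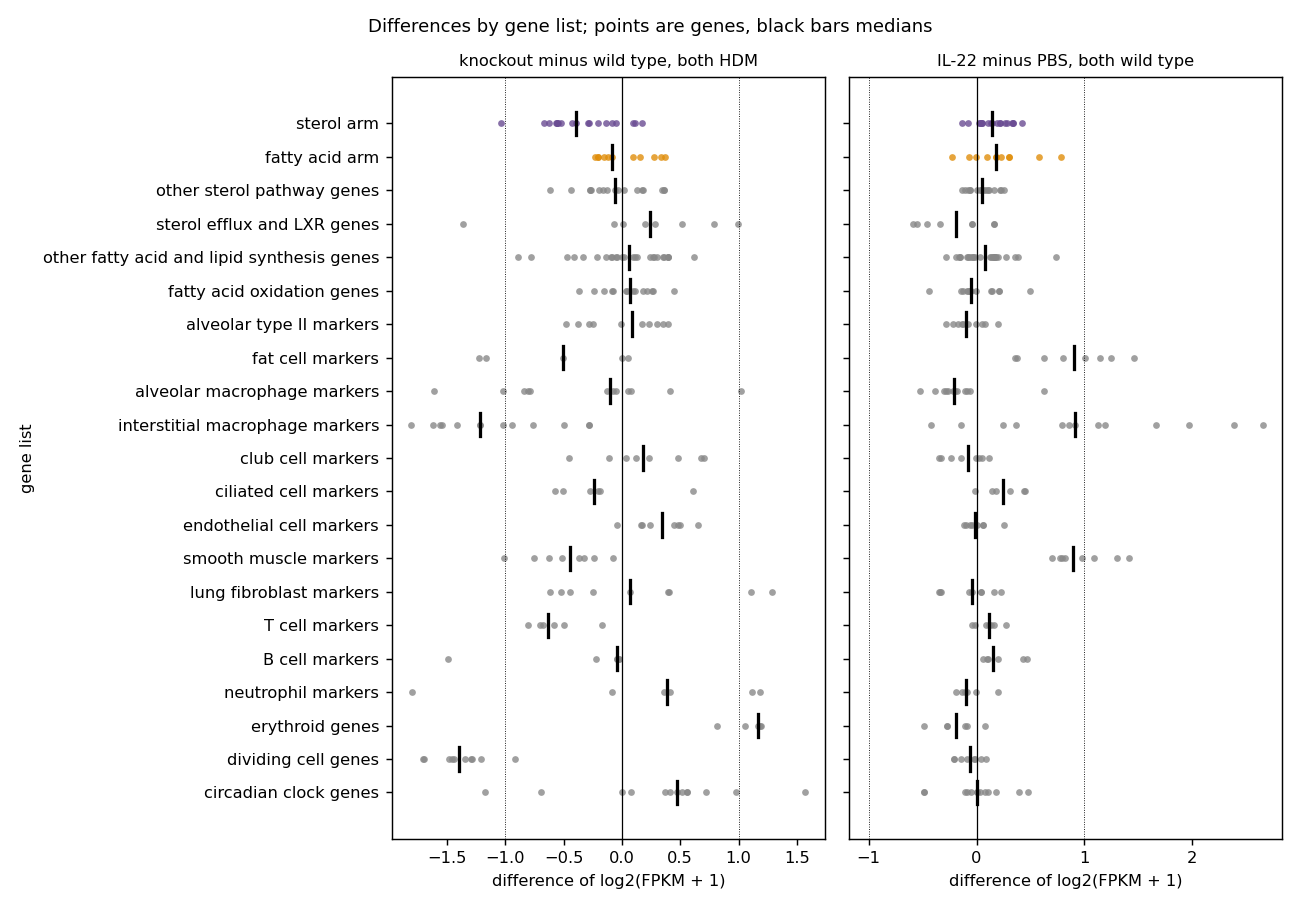
Differences of log2(FPKM + 1) by gene list in the 2 comparisons; each point is a measured gene, black bars are medians and dotted lines mark the size rule of 1. The sterol arm has its median at -0.39 on the left and 0.15 on the right. On the left the medians of several lists lie farther from 0 than that of either arm. These are the dividing cell, interstitial macrophage, erythroid, T cell, fat cell, clock and smooth muscle lists.

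The 2 comparisons share no library, so their values can be set side by side. Of the 19 sterol arm genes 14 (73.7%) lay below 0 in the knockout and above 0 with IL-22, as did 6 of 11 fatty acid genes (54.5%) and 27.8% of the 12902 genes measured in both pairs. All 6 genes of the mevalonate steps did so as deposited. With the libraries scaled by the median ratio, 12 sterol arm genes and 4 of the 6 did. With 16 of the 19 below 0 in the knockout and 17 above 0 with IL-22, 14 is the fewest that could do both. The mevalonate and scaled counts are likewise the fewest possible. The sterol arm and mevalonate overlaps therefore add nothing to the counts within each pair. Across the 19 sterol arm genes the differences had a Pearson r of -0.36 and a Spearman rho of -0.45, and across the 11 fatty acid genes -0.44 and -0.55. Across all 30 genes they were -0.23 and -0.36. No correlation over all measured genes was computed to set beside these values. These describe genes of 4 shared libraries, which are not independent of each other. Sizes differed: the sterol arm median was -0.39 in one pair and 0.15 in the other.

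**Figure D5:**
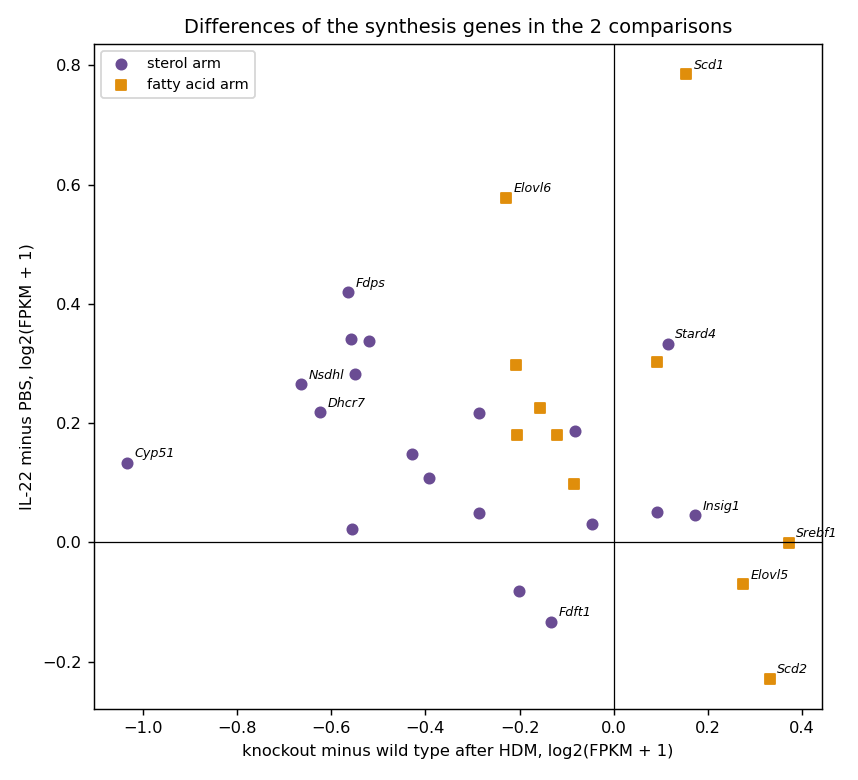
Difference of each gene in the knockout comparison (x axis) against that in the IL-22 comparison (y axis), both of log2(FPKM + 1), for the sterol arm (circles) and the fatty acid arm (squares). Of the circles 14 of 19 lie left of 0 and above 0 as deposited (12 with scaling by the median ratio), Cyp51 lies farthest left at -1.03 and Scd1 highest at 0.79.

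Whether the 2 tables share a scale is not stated, so levels are given by table and no order is read across them. Cyp51 stood at 17.8 and 8.18 FPKM in the HDM table (wild type, then knockout) and at 15.4 and 17.0 in the other table (PBS, then IL-22). In the same order Dhcr7 stood at 7.43 and 4.47, and at 11.1 and 13.0. Srebf2 stood at 29.5 and 27.9, and at 40.1 and 45.8, and Srebf1 at 11.7 and 15.5, and at 22.95 and 22.94. HDM, time after dosing and table differ together between the pairs, so their parts cannot be told apart.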

How the data were processed

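Lung RNA was grouped by sample title. The deposited values are FPKM, in 2 tables of 23746 rows, per the submitters' processing notes made with CASAVA 1.8.2 and TopHat2, followed by Cufflinks 2.2.1, on mm10; tool settings and any scaling across libraries were not given in the sources used here. Symbol and accession together joined the tables. The 25 symbols turned into dates were restored from accessions, and rows sharing a symbol were summed. Older symbols of listed genes were found through RefSeq accessions (GRCm38.p6, the assembly of mm10).

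FPKM are no counts, so no count test was run. Depth came from the commonest value of FPKM times transcript length (GENCODE M21, less 200 bases): of 9009 low values 60.9% fell within 0.1 of a whole read (20% by chance). The members' estimated reads rest on these depths and on the length of the listed accession. The steps were tested on simulated data.

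All members were named; of the other pathway lists, called genes or genes among the largest differences were named, and marker lists are given by counts, sums or medians with some called genes; further names are examples chosen after their values were seen. Single values of some listed genes are not reported here. Members and lists were chosen with earlier results of these data known. Alternatives were a pseudocount of 0.1, no filter, mean FPKM of 5 or more, scaling to a common total without Scgb1a1, scaling by the median ratio, and a 1.5-fold rule. Software was Python 3.11.15 (numpy 2.4.6; pandas 2.3.3; for intervals scipy 1.17.1; for plots matplotlib 3.10.9).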

Additional observations from a re-analysis of the deposited data

How the results depend on the processing

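With a 1.5-fold rule in place of 2-fold, 3 sterol arm genes were lower in the knockout (1 by the 2-fold rule) and 1 fatty acid gene was higher with IL-22 (0 by the 2-fold rule); the looser rule itself admits more genes. The other counts of called members kept their values under a pseudocount of 0.1, no filter, a mean FPKM of at least 5 and both scalings, and Cyp51 stayed between -1.11 and -1.01. The sterol arm median ranged from -0.44 to -0.36 in the knockout pair and from 0.11 to 0.20 in the IL-22 pair. The fatty acid median ranged from -0.11 to 0.0032 in the knockout pair, the latter at a mean FPKM of at least 5, where it changed sign, and from 0.14 to 0.23 in the IL-22 pair. The difference of Elovl6 with IL-22 was 0.91 at a pseudocount of 0.1, and that of Scd1 ran from 0.74 to 0.84 over the scalings. Over all genes, the knockout pair had 73 higher and 322 lower, against 131 and 488 at a pseudocount of 0.1, 58 and 193 at a mean FPKM of at least 5 and 429 and 852 by the 1.5-fold rule. The IL-22 pair had 79 higher and 25 lower, against 132 and 34 at a pseudocount of 0.1, 53 and 21 at a mean FPKM of at least 5 and 259 and 61 by the 1.5-fold rule. Of the members' directions, those of Hmgcs1 and Mvk (median ratio) and of Srebf1 (common total) changed with a scaling, all in the IL-22 pair, and none changed in the knockout pair. No paired analysis was possible because each group has 1 library. Counting intervals were widest for Tm7sf2 and Elovl6.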
